A study of Mus musculus with 4 samples.

Results

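The TRAV3 and TRAV4 families are 2 groups of variable (V) segments of the mouse T cell receptor (TCR) alpha locus, and the TCR alpha chains that use them were examined in splenic CD4 T cells. A clone in these data is a distinct TCR transcript sequence with its number of reads. Members were chosen by the best V segment listed for each clone: a name beginning with TRAV3-, TRAV3D-, TRAV3N-, TRAV4-, TRAV4D- or TRAV4N-, without a DV suffix, which marks segments that the TCR delta chain also uses. Of 189388 TCR alpha clones in 4 libraries, 13086 met this rule, 5065 of the TRAV3 family and 8021 of the TRAV4 family. TRAV4-4-DV10, with 3191 clones, was left out by the DV rule.

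The control group was wild type (WT) mice and the other group was Tet2/3 DKO mice, in which Tet2 is deleted in the germline (Tet2-/-) and the floxed Tet3 gene (Tet3 flx/flx) is removed by CD4Cre from the CD4+CD8+ stage of thymic development onward. TET2 and TET3 are enzymes that oxidise 5-methylcytosine in DNA. Mice were on average 25 days old, and each genotype gave 2 libraries, labelled as biological replicates. Total splenic CD4 T cells, naive and activated, were sorted as TCRb+ and CD25-, with no binding of the aGalCer-loaded CD1d tetramer that marks invariant natural killer T (iNKT) cells. The tables hold receptor chains alone, so the CD4 phenotype itself could not be checked in them. The chain that defines iNKT cells, TRAV11 with TRAJ18 and a CDR3 of 15 amino acids, made up 0.0620% and 0.0541% of TCR alpha reads in WT, against 0.0302% and 0.0191% in Tet2/3 DKO. The libraries held between 172506 and 287799 TCR alpha reads.

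A TCR alpha chain is assembled in the thymus by joining 1 V segment to 1 joining (J) segment, with bases trimmed from both ends and others inserted between them. The join forms the third complementarity-determining region (CDR3), which contacts the peptide, whereas CDR1 and CDR2 are encoded in the V segment and mainly contact the MHC molecule. The alpha locus can rearrange repeatedly: a new join uses a V segment further upstream and a J segment further downstream, deleting the earlier join. The mouse locus also carries duplicated blocks of V segments, so that a family has an original copy and near-identical D and N copies. TRAJ segments are numbered in reverse, so that a high TRAJ number lies close to the V segments. In the RefSeq annotation of GRCm38.p6 (the mm10 build) the TRAJ numbers fell along chromosome 14 from Traj61 at chr14:54155005-54155076 to Traj1 at chr14:54218814-54218842.

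That annotation lists 17 TRAV3 and TRAV4 segments upstream of these, and 10 of them were the best V segment of at least 1 member clone. In order along the chromosome these were TRAV3-1 (chr14:52580762-52581213), TRAV4D-2 (chr14:52710917-52711402), TRAV4D-3 (chr14:52899972-52900470), TRAV3D-3 (chr14:52972532-52973038), TRAV4D-4 (chr14:52990889-52991389), TRAV4N-3 (chr14:53210906-53211407), TRAV4-2 (chr14:53418388-53418873), TRAV4-3 (chr14:53598911-53599410), TRAV3-3 (chr14:53666005-53666506) and TRAV3-4 (chr14:53777071-53777576). All are annotated as V segments except TRAV4D-2, which is a V segment pseudogene. No clone was assigned to TRAV4-1, TRAV3D-2, TRAV3-2 or TRAV3N-2. TRAV3N-3 (chr14:53283669-53284175) and TRAV4N-4 (chr14:53302059-53302559) appeared only as equal hits: between 99.9% and 100% of TRAV3D-3 reads scored equally for TRAV3N-3, and 100% of TRAV4D-4 reads scored equally for TRAV4N-4. TRAV3D-3 and TRAV4D-4 below therefore each stand for a D and an N copy that the reads could not separate. TRAV4D-3 reads were tied with TRAV4N-3 in 80.0% to 100% of cases, whereas TRAV3-3, TRAV4-2, TRAV4-3 and TRAV4N-3 were almost always separated from other segments.

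The copies differ in the loops they encode, and the sequences of CDR1 and CDR2 are shown to make those differences visible. Each is the sequence in at least 97.7% of the copy's reads that cover the loop, written 5′ to 3′. Capitals mark bases that differ from TRAV3D-3 within the TRAV3 family and from TRAV4D-4 within the TRAV4 family. CDR1 was as follows.
TRAV3D-3 and TRAV3-3: gaccctaacagttattac
TRAV3-1 and TRAV3-4: gacAGtGCcaCtGCttac
TRAV4D-4: accaccatgagggct
TRAV4-2 and TRAV4D-2: accaccatgaAAgGt
TRAV4-3: aTcGccGCgaCAAct
TRAV4N-3 and TRAV4D-3: aTcGcTGCgaCAAct
CDR2 was as follows.
TRAV3D-3 and TRAV3-3: gttttctcaagtacggaaata
TRAV3-1: gtCCtTtcaaAtGTggaCaGa
TRAV3-4: gtCttTtcaaAtGTggaCaGa
TRAV4D-4: ttggcttcaggaaca
TRAV4-2 and TRAV4D-2: CtggctCAaggaaca
TRAV4-3: CtggTtCcaggaaca
TRAV4N-3 and TRAV4D-3: CtggTGCcaggaaca
TRAV3D-3 and TRAV3-3 thus encoded the same loops, DPNSYY and VFSSTEI, while TRAV3-1 encoded DSATAY and VLSNVDR, and TRAV3-4 encoded DSATAY and VFSNVDR. In the TRAV4 family there were 3 pairs of loops. TRAV4D-4 encoded TTMRA and LASGT. TRAV4-2 and TRAV4D-2 encoded TTMKG and LAQGT. TRAV4-3, TRAV4N-3 and TRAV4D-3 all encoded IAATT and LVPGT, although TRAV4-3 differed from the other two at the nucleotide level.

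TRAV4D-2 carried a stop codon in framework region 3 (FR3), the stretch between CDR2 and CDR3. The surrounding bases are shown against TRAV4-2, which encodes the same CDR1 and CDR2, with codon 13 of FR3 in capitals.
TRAV4-2: acattcaattctAAGgagcgctacagc
TRAV4D-2: acattcaattctTAGgagcgctacagc
Counted from the first base of FR3, the change is A37T, and A65G and C90A were the only other differences between the commonest FR3 of each copy. All 134 TRAV4D-2 clones with a readable FR3 had this stop codon. None of the other 9 copies had a stop codon in its commonest FR3.

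The families together made up 6.01% and 6.47% of TCR alpha reads in WT, against 6.50% and 7.51% in Tet2/3 DKO. The TRAV3 family was made up of 2 abundant copies, TRAV3D-3 with 60.7% and TRAV3-3 with 36.1% of its reads over the 4 libraries. The TRAV4 family was spread over TRAV4D-4 with 44.8%, TRAV4-2 with 25.5%, TRAV4-3 with 21.3% and TRAV4N-3 with 6.84%. The other 4 copies each held less than 2% of their family's reads.

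The plot of usage by copy shows the share of each in every library, which was as follows. TRAV3D-3 took 1.48% and 1.59% of TCR alpha reads in WT, against 1.62% and 1.35% in Tet2/3 DKO. TRAV3-3 took 0.747% and 0.763% in WT, against 1.11% and 0.920% in Tet2/3 DKO. The genotypes overlapped for TRAV3D-3 and did not for TRAV3-3, which was higher in both Tet2/3 DKO libraries. TRAV4D-4 took 1.52% and 1.64% in WT, against 1.54% and 2.60% in Tet2/3 DKO. TRAV4N-3 took 0.209% and 0.255% in WT, against 0.169% and 0.451% in Tet2/3 DKO. For these 2 copies, Tet2/3 DKO replicate 2 stood above the other 3 libraries and Tet2/3 DKO replicate 1 did not. TRAV4-2 took 1.05% and 1.07% in WT, against 1.06% and 1.15% in Tet2/3 DKO. TRAV4-3 took 0.857% and 1.03% in WT, against 0.844% and 0.890% in Tet2/3 DKO. TRAV4-2 varied little between libraries and TRAV4-3 varied more, and the genotypes overlapped for both.

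Among the rare copies, TRAV3-1 took 0.0371% and 0.0439% of reads in WT, against 0.0743% and 0.0309% in Tet2/3 DKO. TRAV3-4 took 0.0214% and 0.0286% in WT, against 0.0164% and 0.0622% in Tet2/3 DKO. The pseudogene TRAV4D-2 took 0.0754% and 0.0439% in WT, against 0.0497% and 0.0438% in Tet2/3 DKO. TRAV4D-3 took 0.0128% and 0.0139% in WT, against 0.00872% and 0.0122% in Tet2/3 DKO. These shares rest on between 17 and 179 reads per library and copy, so small differences were not detectable at this depth.

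**Figure D1:**
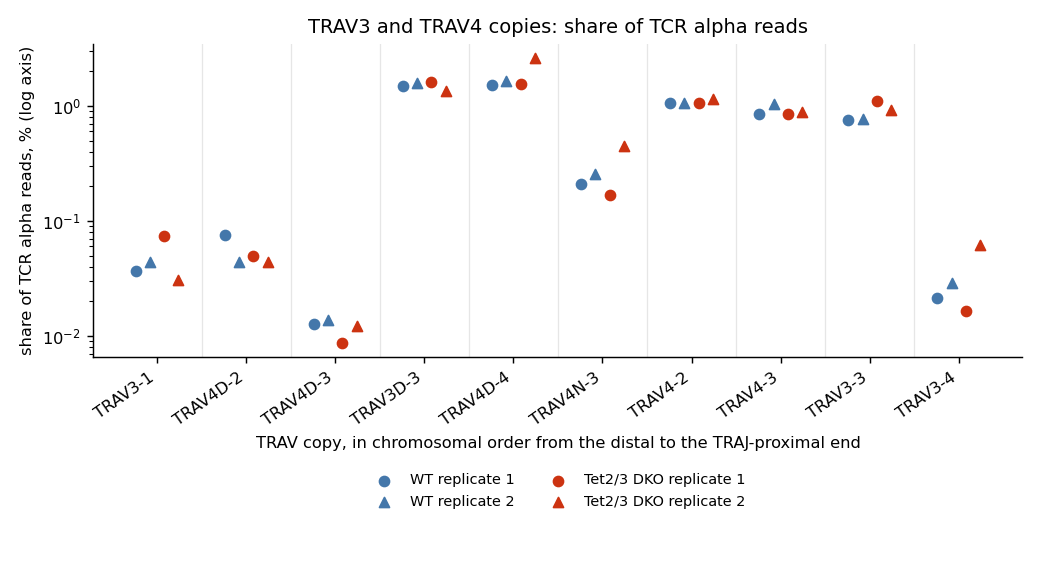
Share of TCR alpha reads (percent, logarithmic vertical axis) taken by each TRAV3 and TRAV4 copy in the 4 libraries, with copies in chromosomal order and 1 point per library. TRAV3D-3 and TRAV4D-4 had the highest shares, and TRAV4D-4 reached 2.60% in Tet2/3 DKO replicate 2.

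No copy differed between the genotypes in edgeR's quasi-likelihood test across all 101 TRAV segments with Benjamini-Hochberg adjustment. The test called 0 segments, or 0% of those tested, and 0 of the 10 copies (DESeq2 also called 0), with 3 segments and 1 copy at an unadjusted p under 0.05. That copy was TRAV3-3, with a log2 fold change (Tet2/3 DKO over WT) of 0.43 ± 0.18 (SE) and an adjusted p of 0.972. With each clone counted once its log2 fold change was 0.24, and 0 segments were then at an unadjusted p under 0.05. Groups that do not overlap were common in this design: 22.8% of all TRAV segments had shares of reads that did not overlap between the genotypes, against 2 of the 10 copies, TRAV3-3 and TRAV4D-3. The log2 fold changes of the other main copies were -0.04 ± 0.16 for TRAV3D-3, 0.06 ± 0.16 for TRAV4-2, -0.12 ± 0.18 for TRAV4-3, 0.39 ± 0.23 for TRAV4D-4 and 0.42 ± 0.41 for TRAV4N-3. The last 2 were 0.18 and 0.17 with each clone counted once. TRAV4N-3 was at 0.96 without Tet2/3 DKO replicate 1 and at -0.45 without Tet2/3 DKO replicate 2. Without Tet2/3 DKO replicate 1, TRAV4D-4 was called, with a log2 fold change of 0.72 and an adjusted p of 0.0346 (edgeR), as 1 of 4 segments called among the 101, and without Tet2/3 DKO replicate 2 it was -0.04. In these bulk samples, more cells using a segment and more transcript per cell cannot be told apart.

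As whole families, TRAV3 took 2.36% ± 0.0936 (SD, n = 2) of reads in WT and 2.60% ± 0.324 in Tet2/3 DKO. TRAV4 took 3.89% ± 0.230 in WT and 4.41% ± 1.04 in Tet2/3 DKO. On the log2 scale the differences were 0.14 for TRAV3 and 0.16 for TRAV4, with exact permutation p-values (two-sided) of 0.667 and 1. The TRAV3 difference was 0.00768 without Tet2/3 DKO replicate 1 and 0.263 without Tet2/3 DKO replicate 2, and the TRAV4 difference was 0.405 and -0.0816 without these libraries. With 2 libraries against 2 this test cannot go below 0.333, and in both families the genotypes overlapped. With in-frame clones only, TRAV3 did not overlap, at 1.95% and 2.01% in WT, against 2.47% and 2.08% in Tet2/3 DKO. With each clone counted once its log2 difference was 0.0654, with overlap.

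TRAV-TRAJ pairs were compared next, to ask whether a copy joined to a given J segment was used differently. Of 2218 pairs tested by edgeR 0 were called, or 0%, and 0 of the 192 pairs with a TRAV3 or TRAV4 copy were called, with 110 and 11 at an unadjusted p under 0.05. The pairs with the largest mean share of TRAV3 reads all used TRAV3D-3. TRAV3D-3 with TRAJ23 made up 5.75% and 6.26% of the family's reads in WT, against 4.59% and 8.51% in Tet2/3 DKO. TRAV3D-3 with TRAJ30 made up 8.48% and 2.50% in WT, against 1.78% and 5.97% in Tet2/3 DKO. TRAV3D-3 with TRAJ22 made up 4.30% and 5.86% in WT, against 3.56% and 1.79% in Tet2/3 DKO. For TRAJ23 and TRAJ30 the genotypes overlapped, while for TRAJ22 both Tet2/3 DKO libraries lay below both WT libraries. As a share of all TCR alpha reads TRAV3D-3 with TRAJ22 did overlap, and its log2 fold change was -0.76 ± 0.48 (SE) with an adjusted p of 0.930 (edgeR). The fold change was -1.50 without Tet2/3 DKO replicate 1, -0.26 without Tet2/3 DKO replicate 2, -0.47 without WT replicate 2 and -0.50 with each clone counted once. In the TRAV4 family all leading pairs used TRAV4D-4. TRAV4D-4 with TRAJ12 made up 7.08% and 5.18% of the family's reads in WT, against 4.55% and 7.58% in Tet2/3 DKO. TRAV4D-4 with TRAJ22 made up 2.26% and 3.96% in WT, against 2.58% and 4.28% in Tet2/3 DKO. TRAV4D-4 with TRAJ15 made up 4.62% and 2.02% in WT, against 2.10% and 3.17% in Tet2/3 DKO. Adjusted p-values of these 6 pairs lay between 0.930 and 1.00 (edgeR).

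DESeq2, the test with no filter on low counts and the test without Tet2/3 DKO replicate 1 called 2 of 192, 6 of 357 and 4 of 181 member pairs, against 11 of 2218, 50 of 3729 and 24 of 2032 pairs of all TRAV segments, so calls were not particular to these families. Over these settings 6 different pairs were called, and in each the largest single clone of Tet2/3 DKO replicate 2 held most of that library's reads. TRAV4-2 with TRAJ42 had 23 and 21 reads in WT, against 53 and 696 in Tet2/3 DKO, of which 1 clone gave 629. TRAV4D-4 with TRAJ24 had 11 and 33 reads in WT, against 85 and 419 in Tet2/3 DKO, of which 1 clone gave 342. TRAV4D-4 with TRAJ27 had 106 and 109 reads in WT, against 141 and 1036 in Tet2/3 DKO, of which 1 clone gave 800. The other three were TRAV4N-3 with TRAJ13, TRAV4N-3 with TRAJ4 and TRAV3-4 with TRAJ49, where the largest clone gave 263 of 347, 209 of 234 and 56 of 60 reads.

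From TRAV4-2 through TRAV4-3 to TRAV3-3, the copies closer to TRAJ joined to J segments with higher numbers, in both genotypes. For this and the following measures a rearrangement, defined as a copy or family with its TRAJ and CDR3 nucleotide sequence, was counted once per library whatever its reads. TRAV3-3, near the TRAJ end, had a mean TRAJ number of 36.6 and 36.7 in WT, against 37.0 and 38.0 in Tet2/3 DKO. TRAV3D-3, in the duplicated block further upstream, had a mean TRAJ number of 22.4 and 21.7 in WT, against 21.2 and 20.7 in Tet2/3 DKO. The difference between these copies, which encode the same CDR1 and CDR2, was 15.6 ± 1.28 TRAJ positions (SD, n = 4 libraries) and ran the same way in 4 of 4 libraries. TRAV3-3 had 40.6% to 48.5% of its rearrangements at TRAJ40 or above, and TRAV3D-3 had 5.89% to 9.12%.

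The main TRAV4 copies were ordered in the same way. TRAV4D-4 had a mean TRAJ number of 23.2 and 22.7 in WT, against 22.2 and 21.5 in Tet2/3 DKO. TRAV4N-3 had 22.2 and 23.0 in WT, against 19.8 and 21.5 in Tet2/3 DKO. The ranges of these copies of the duplicated blocks overlapped over the libraries. Within every library TRAV4D-4 lay slightly above TRAV3D-3. TRAV4N-3 could not be ordered against them, because it lay below both in some libraries and not in others. TRAV4-2 had 26.1 and 26.5 in WT, against 26.1 and 25.9 in Tet2/3 DKO. TRAV4-3 had 34.5 and 33.8 in WT, against 34.4 and 33.4 in Tet2/3 DKO. TRAV4-2 therefore lay above every library of TRAV3D-3, TRAV4D-4 and TRAV4N-3 and below every library of TRAV4-3, and TRAV4-3 exceeded TRAV4D-4 by 11.6 ± 0.502 positions (SD, n = 4). Over the 4 libraries pooled, the median TRAJ number was 22 for TRAV3D-3 and TRAV4D-4, 26 for TRAV4-2, 34 for TRAV4-3 and 38 for TRAV3-3. TRAV4-4-DV10, which lies between TRAV3-3 and TRAV3-4, had a mean TRAJ number of 40.3 over the 4 libraries. TRAV3-4, with between 11 and 22 rearrangements per library, had 46.5 and 46.8 in WT, against 37.3 and 43.3 in Tet2/3 DKO, so that Tet2/3 DKO replicate 1 lay below the mean of TRAV4-4-DV10. At the far upstream end, TRAV3-1 had a mean of 22.0 and the pseudogene TRAV4D-2 one of 26.4, so that the order along the chromosome was not kept there. TRAV4D-3, which lies between TRAV4D-2 and TRAV3D-3, had the lowest mean of all copies, 16.7 (14.5 to 18.5 by library). That mean rests on 34 rearrangements over the 4 libraries.

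**Figure D2:**
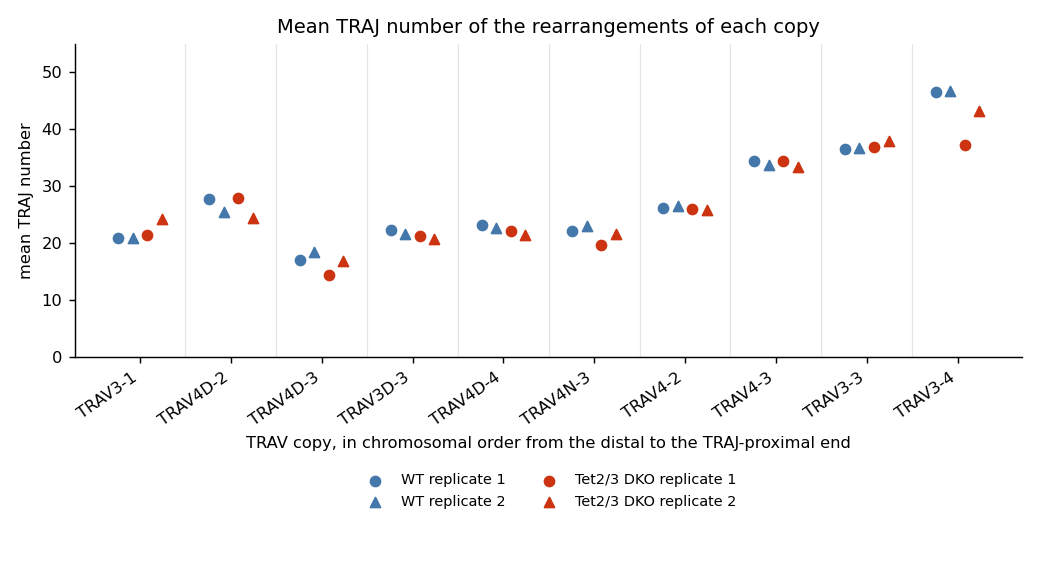
Mean TRAJ number of the distinct rearrangements of each copy (vertical axis), with copies in chromosomal order and 1 point per library. From TRAV4-2 to TRAV3-3 the means climbed from about 26.2 to 37.1 in both genotypes, while the upstream copies TRAV3D-3, TRAV4D-4 and TRAV4N-3 lay together near 22.

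**Figure D3:**
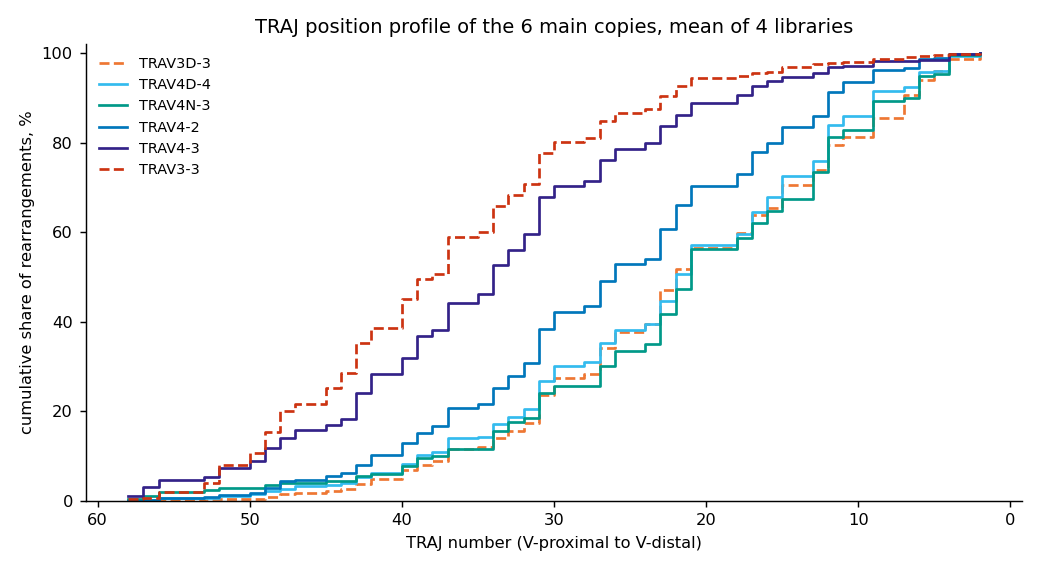
Cumulative share of rearrangements (percent, mean of the 4 libraries) against TRAJ number, from V-proximal on the left to V-distal on the right, for the 6 main copies. TRAV3-3 and TRAV4-3 filled up at high TRAJ numbers, TRAV4-2 lay between, and the curves of TRAV3D-3, TRAV4D-4 and TRAV4N-3 ran together.

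Between genotypes, the mean TRAJ number did not overlap for 5 of the 6 main copies, against 40% of the 70 TRAV segments with at least 50 rearrangements in every library. TRAV3-3 was higher in Tet2/3 DKO by 0.818, and TRAV3D-3, TRAV4-2, TRAV4D-4 and TRAV4N-3 differed from WT by between -1.96 and -0.316 positions. For the TRAV3 family the mean was 27.3 and 27.0 in WT, against 27.5 and 27.5 in Tet2/3 DKO. For the TRAV4 family it was 27.1 and 26.9 in WT, against 26.6 and 25.7 in Tet2/3 DKO. All other TRAV segments together had 29.8 and 29.7 in WT, against 29.7 and 29.3 in Tet2/3 DKO. The difference from WT was thus -0.781 for TRAV4 and -0.263 for the other segments. Weighted by reads it was -1.44 for TRAV4 and 0.00181 for the other segments, which then overlapped between the genotypes, and leaving out 1 library moved the TRAV4 value to between -1.23 (without Tet2/3 DKO replicate 1) and -0.333 (without Tet2/3 DKO replicate 2). The exact permutation p was 0.333 for both families, the smallest this design allows. For TRAV3 the difference of 0.342 became 0.727 weighted by reads, 0.111 with every clone counted once and 0.165 for rearrangements with at least 2 reads. Under each of these alternatives the TRAV3 genotypes overlapped. Within libraries, the mean difference from the other segments was -2.24 TRAJ positions for TRAV3 and -3.01 for TRAV4, below 0 in 4 of 4 libraries (exact sign-flip p = 0.13 each, the smallest that 4 libraries allow). Among the 25 families with at least 50 rearrangements in every library, however, TRAV4 had only the fifth lowest mean TRAJ number and TRAV3 the ninth. TRAV6 (26.9), TRAV12 (27.0), TRAV7 (27.0) and TRAV8 (27.5) lay at a similar level, and TRAV19 (48.7) and TRAV21/DV (49.1) were the highest.

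TRAJ31 was the commonest J segment of both families, with 7.58% and 5.92% of TRAV3 rearrangements in WT, against 6.18% and 6.53% in Tet2/3 DKO. In the TRAV4 family it took 7.48% and 6.97% in WT, against 6.98% and 6.49% in Tet2/3 DKO. TRAJ23 came next, with a mean of 5.88% of TRAV3 and 5.32% of TRAV4 rearrangements. TRAJ27 was the third of the TRAV3 family, with a mean of 4.72%, and TRAJ12 the third of the TRAV4 family, with 5.20%. The TRAJ profile of in-frame TRAV3 rearrangements was most like those of TRAV7, TRAV8 and TRAV6, with Pearson's r of 0.912, 0.906 and 0.898 over 44 TRAJ segments, among 17 families with at least 200 in-frame rearrangements in every library. The TRAV4 profile was most like those of TRAV6, TRAV7 and TRAV13, with r of 0.947, 0.938 and 0.937. The correlation between TRAV3 and TRAV4 themselves was 0.833. All these profiles come from the same libraries.

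The copies differed widely in the share of rearrangements whose CDR3 was in frame and free of stop codons. Transcripts that are out of frame cannot give a receptor chain, and they are known from cells whose other alpha allele is productive. TRAV4D-4 was in frame in 91.9% and 93.0% of its rearrangements in WT, against 91.1% and 93.1% in Tet2/3 DKO. TRAV4N-3 was in frame in 88.9% and 94.4% in WT, against 87.9% and 91.9% in Tet2/3 DKO. TRAV3D-3 was in frame in 67.7% and 66.8% in WT, against 67.7% and 68.2% in Tet2/3 DKO. TRAV4D-4 and TRAV3D-3, which are neighbours on the chromosome and join to the same range of TRAJ, differed by 24.7 ± 1.17 percentage points (SD, n = 4 libraries), with TRAV4D-4 higher in 4 of 4 libraries.

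The remaining main copies lay between these. TRAV4-2 was in frame in 80.5% and 81.5% of rearrangements in WT, against 77.2% and 78.8% in Tet2/3 DKO. TRAV4-3 was in frame in 75.4% and 74.7% in WT, against 80.2% and 75.3% in Tet2/3 DKO. TRAV3-3 was in frame in 66.0% and 74.4% in WT, against 74.2% and 75.5% in Tet2/3 DKO. TRAV3-3 was higher than TRAV3D-3 by 4.93 ± 4.45 percentage points (SD, n = 4), in 3 of 4 libraries, with a difference of -1.70 in WT replicate 1. TRAV4N-3 exceeded TRAV4-3, which encodes the same CDR1 and CDR2 amino acids, by 14.4 ± 5.14 percentage points, in 4 of 4 libraries. For the TRAV3 copies with many out-of-frame rearrangements, the pooled mean TRAJ number was 21.4 in frame and 21.6 otherwise for TRAV3D-3, and 37.0 and 37.3 for TRAV3-3.

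Of the rare copies, the pseudogene TRAV4D-2 had the lowest in-frame share, with 31 of 122 rearrangements over the 4 libraries, or 25.4% (95% Wilson interval 18.5% to 33.8%), and by library 22.6% and 20.7% in WT, against 27.6% and 30.3% in Tet2/3 DKO. Because of its FR3 stop codon, these 31 in-frame CDR3s do not belong to an open chain either. TRAV3-1 had 96 of 118 in frame, or 81.4% (73.4% to 87.4%), and by library 18 of 25 and 18 of 24 in WT, against 31 of 34 and 29 of 35 in Tet2/3 DKO. For these 2 copies the genotypes did not overlap, but the Wilson intervals of their single libraries did. TRAV3-4 had 51 of 65, or 78.5% (67.0% to 86.7%). TRAV4D-3 had 19 of 34, or 55.9% (39.5% to 71.1%), and by library 6 of 7 and 5 of 8 in WT, against 5 of 6 and 3 of 13 in Tet2/3 DKO. Intervals cover counting error only, and reads without molecular identifiers are not independent molecules.

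**Figure D4:**
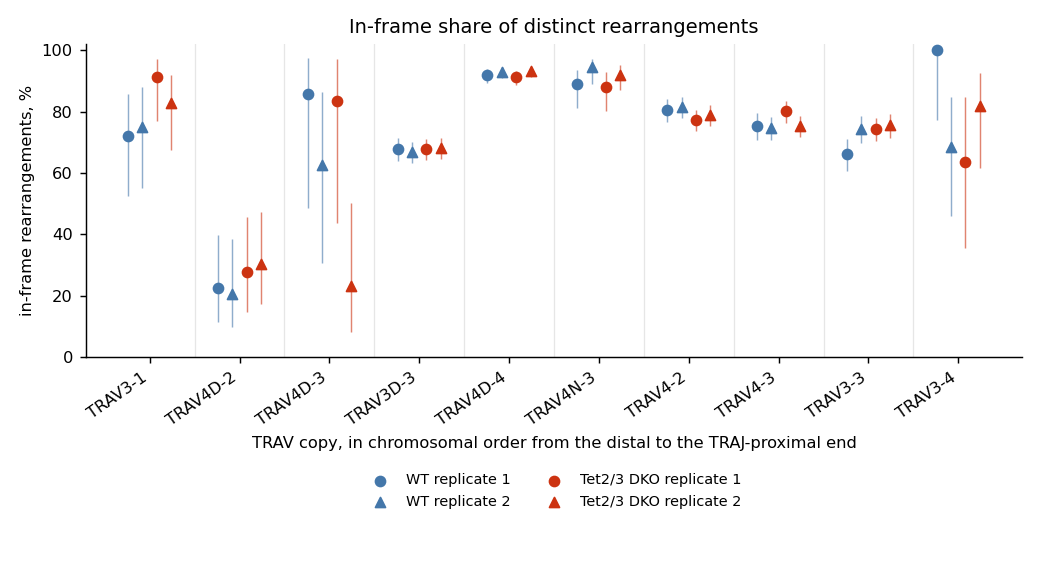
Share of distinct rearrangements with an in-frame CDR3 free of stop codons (percent) for each copy in chromosomal order, 1 point per library with its 95% Wilson interval. TRAV4D-4 and TRAV4N-3 lay at 87.9% or above, TRAV3D-3 lay between 66.8% and 68.2%, and TRAV4D-2 did not exceed 30.3%.

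As a family, TRAV3 was in frame in 68.3% ± 1.23 (SD, n = 2) of rearrangements in WT and 70.6% ± 0.692 in Tet2/3 DKO, a difference of 2.35 percentage points with an exact permutation p of 0.333. It was 1.48 points without WT replicate 1 and 3.22 without WT replicate 2. TRAV4 was in frame in 82.6% ± 0.922 in WT and 82.6% ± 0.676 in Tet2/3 DKO (exact permutation p = 1). The other TRAV segments together were in frame in between 85.4% and 86.1% of rearrangements. Within libraries, TRAV3 differed from these by between -18.0 and -14.4 percentage points, with a mean of -16.2, and TRAV4 by a mean of -3.08, below 0 in 4 of 4 libraries for both (exact sign-flip p = 0.13 each, the smallest possible). Among 25 families with at least 50 rearrangements in every library, TRAV3 had the fourth lowest in-frame share, above TRAV1 (53.8%), TRAV11 (59.9%) and TRAV15/DV (61.9%), and TRAV4 ranked 12 from the bottom. For single copies, in-frame shares did not overlap between the genotypes for 2 of the 6 main copies, TRAV3D-3 and TRAV4-2, against 40% of the 70 segments.

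CDR3s were shorter in the TRAV4 family than in the pool of all other TRAV segments, although TRAV4 was not the shortest family: TRAV8 (12.84 amino acids) and TRAV13 (12.94) had lower means than TRAV4 (13.06, averaged over the libraries) among the 25 families ranked. Mean CDR3 length of in-frame TRAV4 rearrangements was 12.95 and 13.04 amino acids in WT, against 13.09 and 13.14 in Tet2/3 DKO. It differed from that of the other TRAV segments by a mean of -0.425 amino acids, below 0 in 4 of 4 libraries (exact sign-flip p = 0.13, the smallest possible). Mean CDR3 length of the TRAV3 family was 13.48 and 13.47 amino acids in WT, against 13.38 and 13.49 in Tet2/3 DKO, and its mean distance from the other segments was -0.0234 (exact sign-flip p = 0.625). That mean pools 0.0427 and 0.0297 in WT with -0.115 and -0.0510 in Tet2/3 DKO. Lengths of 12 amino acids made up 19.1% to 21.6% of TRAV4, 9.19% to 12.4% of TRAV3 and 13.9% to 15% of other rearrangements.

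Between genotypes, TRAV4 CDR3s were longer in Tet2/3 DKO by 0.117 amino acids (exact permutation p = 0.333) and the libraries did not overlap (0.261 weighted by reads, and 0.0724 without WT replicate 1), while the other TRAV segments were longer by 0.0785, also without overlap. The difference for TRAV3 was -0.0406 (exact permutation p = 1). It was -0.157 weighted by reads and 0.0117 without Tet2/3 DKO replicate 1. Among the main copies, mean length did not overlap for TRAV4-2, TRAV4-3 and TRAV4D-4, each longer in Tet2/3 DKO by 0.109 to 0.126 amino acids. The share was 3 of 6, against 55.7% of the 70 TRAV segments.

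**Figure D5:**
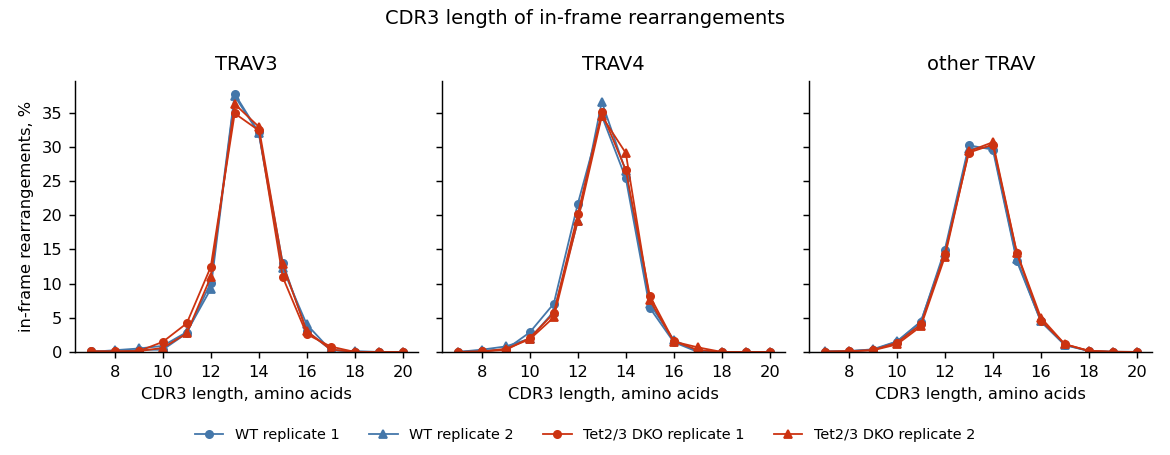
Distribution of CDR3 length (amino acids) as a percent of in-frame rearrangements for TRAV3, TRAV4 and all other TRAV segments, 1 line per library. TRAV4 has more rearrangements of 12 amino acids than the others, and all TRAV3 and TRAV4 libraries peak at 13.

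The part of CDR3 that each V segment encodes is short, and it is shown because it sets the commonest opening residues of each main copy. It is read from clones whose V end had lost no base.
TRAV3-1, TRAV3-3, TRAV3-4 and TRAV3D-3: tgcgcagtcagtg
TRAV4-2: tgtgctgttgagg
TRAV4-3, TRAV4D-4 and TRAV4N-3: tgtgctgctgagg
The first encodes CAVS, the second CAVE and the third CAAE. CAVS opened 54.3% to 58.4% of in-frame TRAV3-3 rearrangements and 54.5% to 58.7% of TRAV3D-3 ones. CAVE opened 34.7% to 41.0% of TRAV4-2 rearrangements, and CAAE opened 48.2% to 51.9% of those of TRAV4D-4, 43.0% to 50.1% of those of TRAV4-3 and 39.4% to 55.6% of those of TRAV4N-3. In-frame TRAV4 rearrangements had lost between 2.40 and 2.57 bases from the V end on average, TRAV3 ones between 1.68 and 1.87, and those of other segments between 2.13 and 2.23. Inserted bases averaged 2.02 to 2.21 in TRAV4, 2.27 to 2.37 in TRAV3 and 2.38 to 2.41 in the rest. TRAV4 thus combined the most trimming of the V end with the fewest insertions of these 3 groups, in every library.

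The most abundant clone of a family held a small share of the repertoire in each library. Their CDR3 sequences follow, with bases assigned to neither V nor J in capitals, first for TRAV3 and then for TRAV4. Assignment is that of the deposited alignments, which give palindromic bases beyond an untrimmed segment end to that segment and allow mismatches, so that lower-case bases can depart from the V end shown above. Inserted bases are counted in the same way throughout.
WT replicate 1, TRAV3D-3 and TRAJ30: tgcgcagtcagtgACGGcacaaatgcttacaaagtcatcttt
WT replicate 2, TRAV3D-3 and TRAJ22: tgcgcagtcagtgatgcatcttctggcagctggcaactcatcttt
Tet2/3 DKO replicate 1, TRAV3D-3 and TRAJ6: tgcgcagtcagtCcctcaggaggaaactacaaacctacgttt
Tet2/3 DKO replicate 2, TRAV3D-3 and TRAJ30: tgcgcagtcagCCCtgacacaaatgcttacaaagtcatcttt
WT replicate 1, TRAV4-2 and TRAJ21: tgtgctgttgagcccCTcgggctttacttc
WT replicate 2, TRAV4-3 and TRAJ39: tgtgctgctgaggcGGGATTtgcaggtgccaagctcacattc
Tet2/3 DKO replicate 1, TRAV4D-4 and TRAJ9: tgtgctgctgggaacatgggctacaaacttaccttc
Tet2/3 DKO replicate 2, TRAV4D-4 and TRAJ27: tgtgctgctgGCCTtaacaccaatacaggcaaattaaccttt
The TRAV3 clones had 156, 111, 107 and 279 reads in this order of libraries, between 1.94% and 4.09% of the family's reads. A second TRAV3 clone of Tet2/3 DKO replicate 1 also had 107 reads. The TRAV4 clones had 154, 154, 127 and 800 reads, and the last made up 5.41% of TRAV4 reads and 0.278% of all TCR alpha reads of its library (95% Wilson interval 0.259% to 0.298%). Its CDR3, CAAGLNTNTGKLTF with TRAJ27, was found in no TRAV4 family clone of another library. Clones of other TRAV segments were not searched for it.

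Large clones were concentrated in Tet2/3 DKO replicate 2. Clones of at least 100 reads numbered 12 in its TRAV4 family and 5 in its TRAV3 family, against 1 to 3 in each family of the other libraries. This was shared by the whole library: among all other TRAV segments, clones of at least 100 reads numbered 139 in Tet2/3 DKO replicate 2 and held 15.2% of reads, against 41, 38 and 27 clones with 6.21%, 2.83% and 2.69% in WT replicate 1, WT replicate 2 and Tet2/3 DKO replicate 1. In the TRAV4 family they held 22.3% of reads in Tet2/3 DKO replicate 2, against 6.38%, 4.38% and 1.77% in the other libraries in the same order. TRAV4 clones with fewer than 100 reads took 3.99% of all TCR alpha reads in Tet2/3 DKO replicate 2. They took 3.49%, 3.87% and 3.60% in the other libraries in the same order. The total in these shares still holds all large clones. Those of other segments alone were 14.1% of TCR alpha reads in Tet2/3 DKO replicate 2, against 5.84%, 2.65% and 2.52%. These shares therefore cannot show whether TRAV4 usage was level outside large clones. Tet2/3 DKO replicate 1 had fewer large TRAV4 clones than either WT library. A fixed read number is also easier to reach in a deeper library, and Tet2/3 DKO replicate 2 was the deepest.

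A small set of chains was shared by all 4 libraries. Counting a chain as a family, a TRAJ and a CDR3 amino acid sequence, 38 of 2274 in-frame TRAV3 chains (1.67%) and 108 of 3805 TRAV4 chains (2.84%) were present in every library, whereas 81.4% and 77.3% were seen in 1 library. Shared TRAV3 chains held 17.8% and 15.6% of the family's in-frame reads in WT, against 16.3% and 10.5% in Tet2/3 DKO. Shared TRAV4 chains held 21.0% and 22.4% in WT, against 21.1% and 17.6% in Tet2/3 DKO. Joins without an inserted base made up 46.7% of the shared TRAV3 rearrangements against 25.1% of all TRAV3 ones, and 46.9% against 27.6% for TRAV4.

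The shared chains with the largest lowest share are given by their commonest nucleotide sequence, with bases assigned to neither V nor J in capitals.
TRAV3 chain with TRAJ37: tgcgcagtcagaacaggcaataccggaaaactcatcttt
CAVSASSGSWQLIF, TRAJ22: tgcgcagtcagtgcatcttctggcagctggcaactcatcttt
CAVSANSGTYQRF, TRAJ13: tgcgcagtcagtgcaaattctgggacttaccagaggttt
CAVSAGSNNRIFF, TRAJ31: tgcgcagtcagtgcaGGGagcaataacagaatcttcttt
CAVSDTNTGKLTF, TRAJ27: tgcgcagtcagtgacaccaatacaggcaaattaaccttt
Leading TRAV4 chain with TRAJ12: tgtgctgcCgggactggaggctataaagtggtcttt
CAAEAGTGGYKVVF, TRAJ12: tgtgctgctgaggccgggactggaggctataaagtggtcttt
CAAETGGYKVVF, TRAJ12: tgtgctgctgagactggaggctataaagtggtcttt
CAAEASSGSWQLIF, TRAJ22: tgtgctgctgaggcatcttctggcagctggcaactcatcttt
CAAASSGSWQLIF, TRAJ22: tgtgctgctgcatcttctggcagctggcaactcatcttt
The opening 5 belong to TRAV3 and the rest to TRAV4, and 8 of the 10 sequences contain no base assigned as inserted. The TRAV3 chain with TRAJ37 had 60 and 52 reads in WT, against 64 and 84 in Tet2/3 DKO, and it was encoded by 5 nucleotide sequences on 3 TRAV3 copies. The leading TRAV4 chain with TRAJ12 had 85 and 136 reads in WT, against 92 and 177 in Tet2/3 DKO, or 0.0493%, 0.0628%, 0.0472% and 0.0615% of TCR alpha reads. It occurred on TRAV4-2, TRAV4-3, TRAV4D-4 and TRAV4N-3, which between them encode all 3 pairs of loops. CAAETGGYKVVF had 67 and 60 reads in WT, against 34 and 170 in Tet2/3 DKO. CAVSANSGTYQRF had 50 and 21 reads in WT, against 59 and 35 in Tet2/3 DKO. These 4 chains overlapped between the genotypes by share of reads. Of the 10 listed, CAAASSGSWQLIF alone did not overlap, with 0.0278% and 0.0286% of TCR alpha reads in WT, against 0.0138% and 0.0247% in Tet2/3 DKO. How many of all shared chains did not overlap was not counted. Without that count, this is no result about that chain. The 22.8% given above is for whole TRAV segments and is not the share for chains.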

How the data were processed

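TCR SMART-seq libraries (a 5'-RACE method without molecular identifiers) were made from 20 ng of total RNA of sorted splenic CD4 T cells and sequenced on a MiSeq. Read trimming by fastp 0.21.0 and clone assembly by MiXCR 4.7.0 were done by the authors. The deposited clone tables give raw read counts per clone, with V and J hits and CDR3 sequences, and bcl2fastq 2.20.0 and the build mm10 are named in the submitters' processing notes. TCR beta tables and libraries from thymus or transferred cells were not used here.

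The V segment listed first was used, with the allele removed. Segment and pair counts were tested with edgeR 4.0.16 (quasi-likelihood, R 4.3.3). Library size was all TCR alpha reads, normalization factors were 1, and at least 10 reads per segment and 40 per pair were required. Adjustment was Benjamini-Hochberg with a threshold of 0.05, and DESeq2 1.42.0 was an alternative. Each SE given with an edgeR log2 fold change is its absolute value divided by the square root of the test's F statistic. On simulated counts with a fold of 4, the segment test recovered 96% of changed segments (101 segments) and the pair test 98.8% of changed pairs (2218 pairs). Those counts had a fixed dispersion (variation beyond counting error) of 0.05, which was not estimated from these data. Real pairs could vary more: TRAV4-2 with TRAJ42 had a log2 fold change of 3.55 and an adjusted p of 0.930 (edgeR). The recovery rates therefore do not say which changes the tests could find in these libraries. Single values were compared by exact permutation and sign-flip tests, enumerated in Python 3.11.15 with numpy 2.4.6. Wilson intervals came from scipy 1.17.1. Other alternatives were TMM, no filter, clones counted once, merged copies, reads as weights, tied hits, a replicate block and leaving out each library.

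Named copies are all those found; frame, length and TRAJ position are given in detail for copies with at least 5% of their family's reads; pairs and TRAJ are the 3 largest by mean share per family, with any called; clones are the largest per family and library; shared chains are the 5 per family with the largest lowest share. Pairs called only under an alternative, and the clones of at least 100 reads, were singled out after their values were seen. Members and lists were chosen with earlier results of these data known. Replicate numbers did not pair libraries in the labels, and deviations from the genotype means of same-numbered libraries correlated with r = 0.0942 over 101 segments.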

Additional observations from a re-analysis of the deposited data

How the results depend on the processing

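With 2 libraries per genotype, exact tests of single values cannot pass 0.05 under any setting, so only direction can be compared for them. Across all alternatives 219 values kept their direction and side of the threshold, 23 turned in direction and 5 gained a call. The number of member pairs called went from 0 to 2 with DESeq2 (11 of all 2218 pairs) and to 6 with no filter (50 of 3729); leaving out 1 library gave between 0 and 4 member pairs and between 0 and 1 member segment, with the called cases above, beside 24 of all 2032 pairs and 4 of all 101 segments, when Tet2/3 DKO replicate 1 was left out (the lone library of a genotype was then assumed to vary like the others). TRAV3 CDR3 length minus other segments turned to 0.0684 amino acids weighted by reads and to 0.0160 with every clone counted once. With each clone counted once, log2 fold changes turned to 0.10 for TRAV4-3, -0.18 for TRAV3D-3 with TRAJ23 and 0.35 for TRAV4D-4 with TRAJ15. Leaving out 1 library turned these values at least once, with ranges of -0.0928 to 0.0117 amino acids for TRAV3 CDR3 length, -0.0454 to 0.00712 for the same minus other segments, -0.0816 to 0.405 (log2) for TRAV4 share of reads and -0.639 to 0.665 points for TRAV4 in-frame share. In log2 fold change the ranges were -0.181 to 0.0807 for TRAV3D-3, -0.252 to 0.0170 for TRAV4-3, -0.0366 to 0.718 for TRAV4D-4, -0.45 to 0.96 for TRAV4N-3, -0.13 to 0.51 for TRAV3D-3 with TRAJ23, -1.34 to 0.67 for TRAV3D-3 with TRAJ30, -0.50 to 0.72 for TRAV4D-4 with TRAJ12, -0.37 to 0.91 for TRAV4D-4 with TRAJ22 and -0.72 to 0.55 for TRAV4D-4 with TRAJ15. The cause was not tested. The replicate block, on numbers that do not pair the libraries, called 0 segments and 0 pairs and gave log2 differences of 0.14 for TRAV3 and 0.16 for TRAV4 share of reads. In-frame share and TRAJ number of both families stayed below the other segments under every alternative run. Values of the rare copies rest on few reads and are limited by depth.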
